A study of Mus musculus with 4 samples.

Results

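Sox7, Sox17 and Sox18, the SoxF group of transcription factors, were followed through the open chromatin of lung endothelium from Dnmt3a knockout and wild-type mice. Every peak that overlapped one of these genes or the 50 kb on either side of it was taken, and peaks sharing at least 1 bp were joined into merged regions. This gave 50 regions of 113056 in the whole data set: 25 at Sox7, 14 at Sox17 and 11 at Sox18. Within the 3 genes the regions were taken by position, whatever their widths and calls, but the genes themselves were chosen with earlier results of these data known.

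The assay was ATAC-seq, which tags accessible DNA by letting a transposase cut it and attach adapters. It was run on endothelial cells that flow cytometry had sorted from lung, in 2 libraries of Dnmt3a knockout (KO) mice and 2 of wild-type (WT) mice. The enzyme that Dnmt3a encodes places new methyl groups on cytosines. The comparison asked how the regions open in these cells differed between the genotypes. How the deletion was made, in which cells it acted, and the age and sex of the animals are not given in the sources used here. They also leave unsaid whether replicate libraries were made from separate animals. Any p-value therefore measures the spread between these libraries, which may be technical.

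SoxF proteins bind DNA through an HMG box and act, partly in place of each other, in the building of blood and lymphatic vessels. Sox17 is known for arterial identity, Sox18 for switching on the lymphatic programme through Prox1, and Sox7 for vessel branching and the parting of arteries from veins. DNA methylation at enhancers and promoters is generally linked with closed chromatin.

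Peak positions on mm10 were the sole values per library, without scores or read counts, and sequencing depth was unknown. Libraries could thus differ in the peaks they listed and in peak width, and a site with no listed peak may still be open. In KO replicate 1 the peak list was shorter, and in both KO libraries the peaks covered fewer base pairs. Neither can be told apart from fewer open cells in the sorted pool. The KO lists held 85091 and 100879 peaks and the WT lists 101442 and 97627, on chromosomes 1 to 19, X and Y. The KO lists covered 46.6 and 47.8 Mb and the WT lists 51.1 and 50.5 Mb. Over the whole genome the KO lists were the least alike, with a shared fraction of their covered base pairs (Jaccard index) of 0.708, against 0.823 for the WT lists. Peaks within 1000 bp of an end of a single-copy Y gene were listed for 4 and 0 of 5 genes in KO and 3 and 4 in WT, so KO replicate 2 stood apart. The sex of the mice was not stated, and the KO libraries may differ in sex. What part this has in the KO values was not tested. All 10 endothelial markers examined, Cdh5 and Erg among them, had a peak near a gene end, at most 1000 bp away, in every library. So did 11 of 16 markers of other cell types in every library, with 1 of 6 leukocyte, 5 of 5 epithelial and 5 of 5 fibroblast or mural genes. Their part in the results was not tested.

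Sequence was at hand for annotated start windows of neighbouring genes, and in the Sox18 interval the listed start with the most CG dinucleotides and the unlisted start with the fewest are shown. The table used (RefSeq, GRCm38.p6) holds 250 bases before and 50 after a start. Rgs19, a regulator of G protein signalling, has a start window on the minus strand at chr2:181693761-181694060, inside region 11 of the Sox18 interval, which all 4 lists held. Gm29797 has one on the plus strand at chr2:181656632-181656931, where 0 of 4 lists had a peak. Both are printed 5′ to 3′, with CG dinucleotides, the site of mammalian DNA methylation, in capitals:
Rgs19: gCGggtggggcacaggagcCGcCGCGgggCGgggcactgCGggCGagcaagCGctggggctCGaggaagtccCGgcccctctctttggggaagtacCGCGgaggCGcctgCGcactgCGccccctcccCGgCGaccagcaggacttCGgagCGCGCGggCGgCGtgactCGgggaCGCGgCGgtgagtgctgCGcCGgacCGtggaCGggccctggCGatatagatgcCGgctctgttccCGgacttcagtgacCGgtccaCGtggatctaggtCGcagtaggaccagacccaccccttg
Gm29797: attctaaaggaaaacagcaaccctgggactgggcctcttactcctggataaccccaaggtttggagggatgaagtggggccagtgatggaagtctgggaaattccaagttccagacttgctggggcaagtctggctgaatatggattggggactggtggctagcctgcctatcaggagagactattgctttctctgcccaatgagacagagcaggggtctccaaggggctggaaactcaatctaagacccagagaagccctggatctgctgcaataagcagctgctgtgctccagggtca
The Rgs19 window held 37 CG dinucleotides, more than 94.4% of 32851 start windows, and the Gm29797 window held 0. The other listed start of the interval, also of Rgs19, held 27, and the other unlisted starts, among them a further one of Rgs19, held 2 to 5. Over all start windows the median was 21 CG where all 4 lists had a peak and 3 where none had. On either strand, the Rgs19 window had 3 matches and the Gm29797 window 6 to GGAA, the core of ETS factor sites, which 96.0% of all windows hold. Both had 0 matches to AACAAT, the core of SOX factor sites, which 10.7% of windows hold. Both had 0 to AGATAA, recognised by zinc finger factors of blood and endothelium, which 11.2% hold. The Rgs19 window had 0 and the Gm29797 window 2 matches to CCAAT, bound by NF-Y, which 37.4% hold. No motif searched contains another, and a match is a description and not a bound site.

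Most regions around the SoxF genes were shared by KO and WT. Of the 50 regions, 40 (80%) were called in all 4 lists, against a background of 66.7% of all merged regions. Regions were numbered from the low-coordinate end of each interval. All 8 regions that overlapped a SoxF gene span were among the 40. In the map of peaks along the 3 intervals, the rows of KO and WT libraries line up closely.

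**Figure D1:**
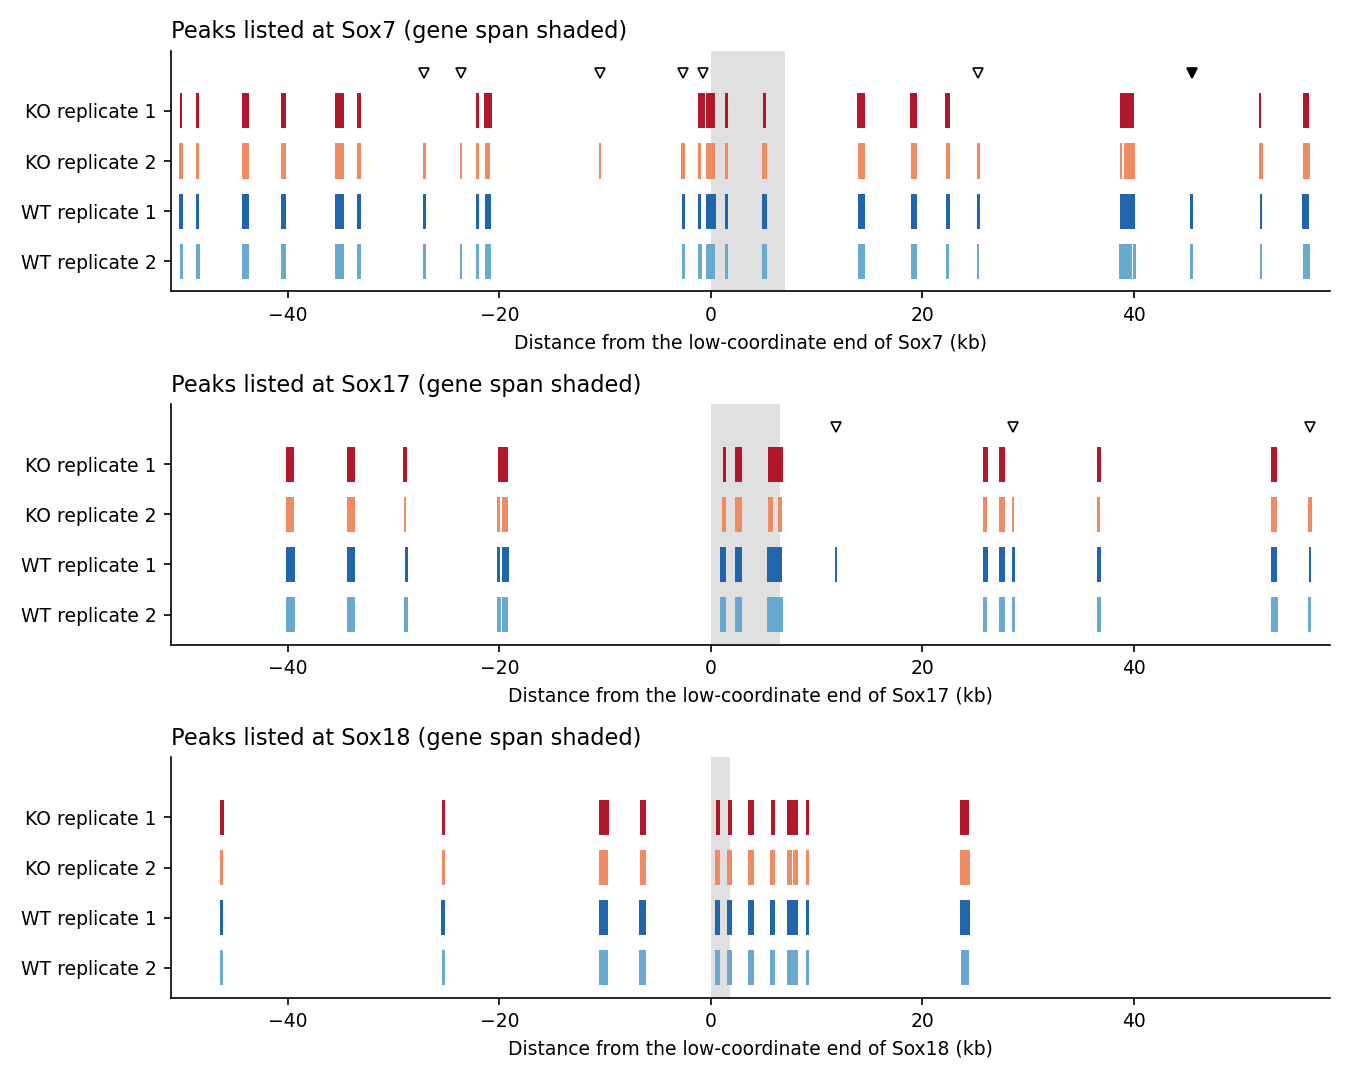
Peaks listed within 50 kb of Sox7, Sox17 and Sox18 by library, against distance from the low-coordinate end of each gene in kb, with the gene span shaded and KO libraries above WT libraries. Open triangles mark the regions missing from 1 or more lists, and the filled triangle marks the 1 region with both WT peaks and no KO peak.

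A region held by both KO libraries and by no WT library is said here to have the KO pattern, and one held by both WT libraries and by no KO library the WT pattern. The KO pattern was seen in 0 of 50 SoxF regions, against 1.12% of all merged regions. The WT pattern was seen in 1 of 50, against 3.04% of all merged regions. The region with the WT pattern lay at chromosome 14, 63989023 to 63989318, where the WT peaks were 261 and 293 bp wide. This was 38291 bp beyond Sox7 and 1243 bp from 4930578I06Rik, the nearest protein-coding gene. The narrowest peak in every list was 201 bp, so both WT peaks were near the lower limit of the data. With 4 libraries such counts turn on single lists. Leaving out KO replicate 1 or KO replicate 2 gave 1 KO-pattern region each time, against 5.83% and 3.21% of all merged regions. Without KO replicate 2 there were 6 WT-pattern regions of 49, near the 11.1% of all merged regions in that setting. Without WT replicate 2 there were 2 of 50, against 7.65%.

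The other 9 regions that were not in all 4 lists were called without a split by genotype. Of the 50 regions, 5 (10%) were missing from KO replicate 1 only, against 7.59% of all merged regions, and 0 from KO replicate 2 only, against 1.82%. These 5 lay 26920, 2445 and 18098 bp from Sox7 and 21951 and 49954 bp from Sox17. At the Sox7 region 2445 bp away, the KO replicate 2 peak was 341 bp wide and the WT peaks were 287 and 285 bp. Each of KO replicate 1, KO replicate 2 and WT replicate 1 also had 1 peak that no other list held, and all 3 were 201 bp wide. The first was 603 bp from Sox7, the second 10379 bp from Sox7 and the third 5265 bp from Sox17. The last of the 10 partial calls, 23488 bp from Sox7, was in KO replicate 2 (204 bp) and WT replicate 2 (267 bp).

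At the edge of the 50 kb limit, the Sox7 interval still took in a region 49862 bp away with peaks of 274 and 354 bp in KO and 375 and 296 bp in WT. It left out one 51434 bp away with 504 and 397 bp in KO and 402 and 406 bp in WT. At Sox17 a region 49954 bp away, missing from KO replicate 1, was inside, with 325 bp in KO replicate 2 and 213 and 288 bp in WT. One 52608 bp away, missing from KO replicate 2, was outside, with 233 bp in KO replicate 1 and 309 and 244 bp in WT.

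Sox7, which acts in vessel branching, lay in one of the densest stretches of open chromatin. Its 25 regions in 107 kb made 23.4 regions per 100 kb, above 99.2% of 21887 protein-coding genes measured over the same flanks, where the median was 6.72. Of these 25 regions, 18 were called in all 4 lists. The interval also holds part of Pinx1, a telomerase inhibitor gene, whose span overlapped 7 of the regions, and part of Rp1l1, a photoreceptor gene.

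Over the low-coordinate end of Sox7 (gene identifier 20680, chromosome 14, 63943706 to 63950732) lay a region from 63943243 to 63944144. Its peaks were 872 and 830 bp wide in KO and 894 and 864 bp in WT, and the genotypes overlapped. Inside the gene, peaks at 63945000 to 63945352 were 336 and 290 bp in KO and 303 and 312 bp in WT, again overlapping. A second internal region, at 63948537 to 63949052, was 306 and 422 bp in KO and 516 and 433 bp in WT, so both KO values lay below both WT values. The log2 width difference there was -0.27 ± 0.20 (SE) after quantile normalisation (limma, adjusted p = 0.944 over 75395 regions), and the call was not made. It was -0.06 without KO replicate 1 and -0.51 without KO replicate 2. Without WT replicate 1 it was -0.14, and without WT replicate 2 it was -0.42, so its size turned on single libraries of both genotypes. Just outside the gene, 872 bp away, peaks were 353 and 341 bp in KO and 370 and 382 bp in WT.

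The broadest Sox7 region lay 31537 bp beyond the gene, at 63982269 to 63983861, over 4930578I06Rik and the lncRNA gene Gm36410. Its widest peak was 1322 and 1079 bp in KO and 1460 and 1258 bp in WT. It was 1 peak in KO replicate 1 and WT replicate 1 but 2 peaks in KO replicate 2, with a gap of 104 bp, and in WT replicate 2, with a gap of 62 bp. Another broad region, inside Pinx1 at 63908191 to 63909055, measured 835 and 843 bp in KO and 837 and 861 bp in WT. After quantile normalisation the largest width difference at Sox7 was at 63921500 to 63921829, with 322 and 258 bp in KO and 271 and 229 bp in WT (log2 difference 0.35 ± 0.18 SE, limma, adjusted p = 0.942). It was 0.13 without KO replicate 1 and 0.56 without KO replicate 2. In widths as listed its log2 difference was 0.21, and the largest was -0.42 at 63895032 to 63895368, inside Pinx1, with 238 and 242 bp in KO and 304 and 337 bp in WT.

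Sox17, the arterial factor of the group, had the 2 largest width differences between genotypes, neither past the adjusted threshold. Its span (gene identifier 20671, chromosome 1, 4490928 to 4497426) held 3 regions, all called in all 4 lists. It is also the nearest protein-coding gene to every one of its 14 regions. They made 13.1 regions per 100 kb, above 83.2% of genes.

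The region at 4491746 to 4492385, inside Sox17, was 309 and 398 bp wide in KO and 568 and 640 bp in WT. The groups did not overlap, and the narrowest WT peak exceeded the widest KO peak by more than the gap between replicates of either genotype. Within its own list this peak stood at the 22.1 and 47.8 percentiles of width in KO and the 69.7 and 74.8 percentiles in WT. The log2 difference was -0.68 ± 0.15 (SE), larger in size than 98.1% of the 75395 regions called in all 4 lists. It had an unadjusted p of 0.00931 in limma and an adjusted p of 0.698, and so was not called. Leaving out each library in turn gave differences of -0.87 to -0.49, with adjusted p between 0.188 and 1. When peaks narrower than their list's median were dropped, this region took the WT pattern, since both KO peaks fell under that limit.

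At the high-coordinate end of Sox17 lay the broadest Sox17 region, at 4496258 to 4497732. It was 1 peak of 1449 bp in KO replicate 1, and 1430 and 1456 bp in WT. In KO replicate 2 it was listed as 2 peaks of 499 and 381 bp, and the 487 bp between them, from 4496796 to 4497282, lay in no peak. The log2 difference of the widest peak was -0.75 ± 0.47 (SE; limma, adjusted p = 0.942), and it was -0.07 without KO replicate 2. The contrast thus rested on that library. Between these regions, at 4493175 to 4493887, all libraries gave nearly equal widths, 705 and 690 bp in KO and 678 and 703 bp in WT.

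Outside Sox17, the region at 4470710 to 4471800, 19128 bp from the gene, was split in 3 lists. It was 1 peak of 942 bp in KO replicate 1 and 2 peaks in the others, the wider being 538 bp in KO replicate 2 and 587 and 634 bp in WT. The gap was 207 bp in KO replicate 2 and 216 and 82 bp in WT. The farthest region on the same side, 39345 bp away, was 704 and 751 bp in KO and 832 and 796 bp in WT. In widths as listed, both KO widths also lay below both WT widths 33662, 19194, 29964 and 46434 bp from the gene. Of these 4 the gap was largest 29964 bp away, with 314 and 299 bp in KO against 375 and 398 bp in WT. After quantile normalisation their log2 differences were 0.01, -0.20, -0.23 and -0.06 in the same order. As listed, 27.0% of all regions called in all 4 lists had both KO widths below both WT widths.

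Sox18, the lymphatic factor, had the most uniform interval. All 11 of its regions were called in all 4 lists. Of 9367 protein-coding gene intervals with at least 11 regions, 160 (1.71%) were as complete. The limit of 11 was the number of regions at Sox18 itself. Intervals with more regions have more that can be missing from a list, so the share does not show how unusual Sox18 is. The interval includes Tcea2, a transcription elongation factor gene. It also holds at least parts of Prpf6, a splicing factor gene, and of Oprl1, the nociceptin receptor gene.

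The Sox18 span (gene identifier 20672, chromosome 2, 181669837 to 181671640) held 2 regions. The one at 181670197 to 181670699 was 388 and 477 bp in KO and 500 and 462 bp in WT. The one over the high-coordinate end, at 181671395 to 181671835, was 392 and 439 bp in KO and 432 and 441 bp in WT. The genotypes overlapped in both. By width, the region over the high-coordinate end stood at the 37.2 and 56.3 percentiles of the KO lists and the 50.2 and 49.7 percentiles of the WT lists. The broad region at the end of Sox17 stood at the 98.6 and 65.9 percentiles in KO and the 99.1 and 99.0 percentiles in WT.

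On the high-coordinate side of Sox18, 4 regions followed within 10 kb. The broadest, 5376 bp away at 181677016 to 181678059, was 1 peak of 1044 bp in KO replicate 1 and of 1016 and 1017 bp in WT, and 2 peaks of 505 and 394 bp in KO replicate 2, 96 bp apart. Its log2 difference of -0.47 ± 0.31 (SE; limma, adjusted p = 0.942) moved to -0.05 with the peaks of a list summed, and to -0.04 without KO replicate 2. Regions held as more than 1 peak by KO replicate 2 and as 1 peak by each other list thus numbered 2 of 40 (5%), this one and the end of Sox17. The background was 2.17% of the regions called in all 4 lists, and 0.470%, 0.508% and 0.341% for the same split in KO replicate 1, WT replicate 1 and WT replicate 2.

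Both Sox18 regions in which KO widths exceeded WT widths were wide. Over Gm29797, 9670 bp away, peaks were 900 and 884 bp in KO and 872 and 865 bp in WT. At the Rgs19 start window printed above, peaks were 879 and 907 bp in KO and 867 and 831 bp in WT (log2 difference 0.10 ± 0.13 SE, limma, adjusted p = 0.992). Without KO replicate 2 the log2 difference was -0.03 at both. Apart from the split region, the largest log2 difference at Sox18 after quantile normalisation was 0.15 ± 0.10 (SE), inside Prpf6. Its peaks were 321 and 320 bp in KO and 325 and 305 bp in WT, and the genotypes overlapped. In widths as listed its log2 difference was 0.03. Among the unsplit regions the largest as listed was -0.16, inside Sox18 at 181670197 to 181670699.

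**Figure D2:**
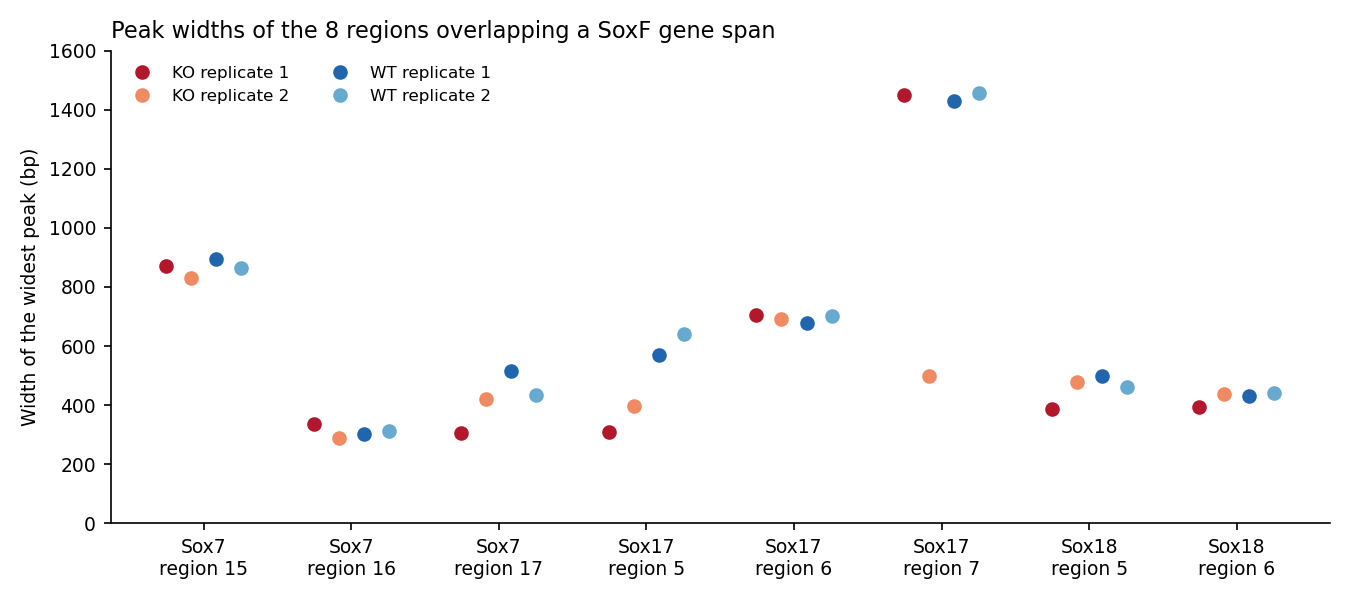
Width in bp of the widest peak in each library at the 8 regions that overlap a SoxF gene span, with the KO libraries left of the WT libraries. The internal Sox17 region 5 is narrower in both KO libraries (309 and 398 bp) than in both WT libraries (568 and 640 bp), while at Sox17 region 7 KO replicate 2 alone (499 bp) is apart from the others.

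Peak widths over the group were then set beside all shared regions. Of the 40 SoxF regions called in all 4 lists, 0 passed an adjusted p of 0.05 in limma, and 0 of 75395 shared regions did. At an unadjusted p under 0.05 there was 1 of 40, against 5.35% of all shared regions. It was the internal Sox17 region, narrower in KO, as were 2.97% of all shared regions at that threshold, and 0 of 40 were wider, against 2.38%. The median log2 difference was 0.02 at SoxF regions and 0.01 over all regions, and 16 of 40 (40%) had a negative difference, against 45.8% of all. Without quantile normalisation the medians were -0.05 and -0.05, and 24 of 40 (60%) were negative, against 64.5%. The direction of the group median therefore depended on the scaling. The median width of the 40 was 490.5 and 488 bp in KO and 538.5 and 555.5 bp in WT, and over all shared regions it was 502 and 469 bp in KO and 504 and 509 bp in WT. By gene, the normalised median was 0.07 at Sox7 (18 regions), -0.06 at Sox17 (11 regions) and 0.02 at Sox18 (11 regions). Over the 8 regions of the gene spans it was -0.04, with 5 negative.

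In base pairs as listed, 13 of the 40 regions (32.5%) had both KO widths below both WT widths, against 27.0% of all regions called in all 4 lists. The opposite held for 2 of 40 (5%), against 7.28%. The 13 comprised 5 at Sox7, 6 at Sox17 and 2 at Sox18. Ranked by percentile within each list, the counts were 8 of 40 (20%), against 19.3%, and 1 of 40 (2.5%), against 10.8%. Such ranking did not make the lists level. KO replicate 1 had a median percentile of 55.1 over all shared regions. That median was 61.4 for KO replicate 2, 61.9 for WT replicate 1 and 60.5 for WT replicate 2. The shares with lower KO widths were near the background on both scales.

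**Figure D3:**
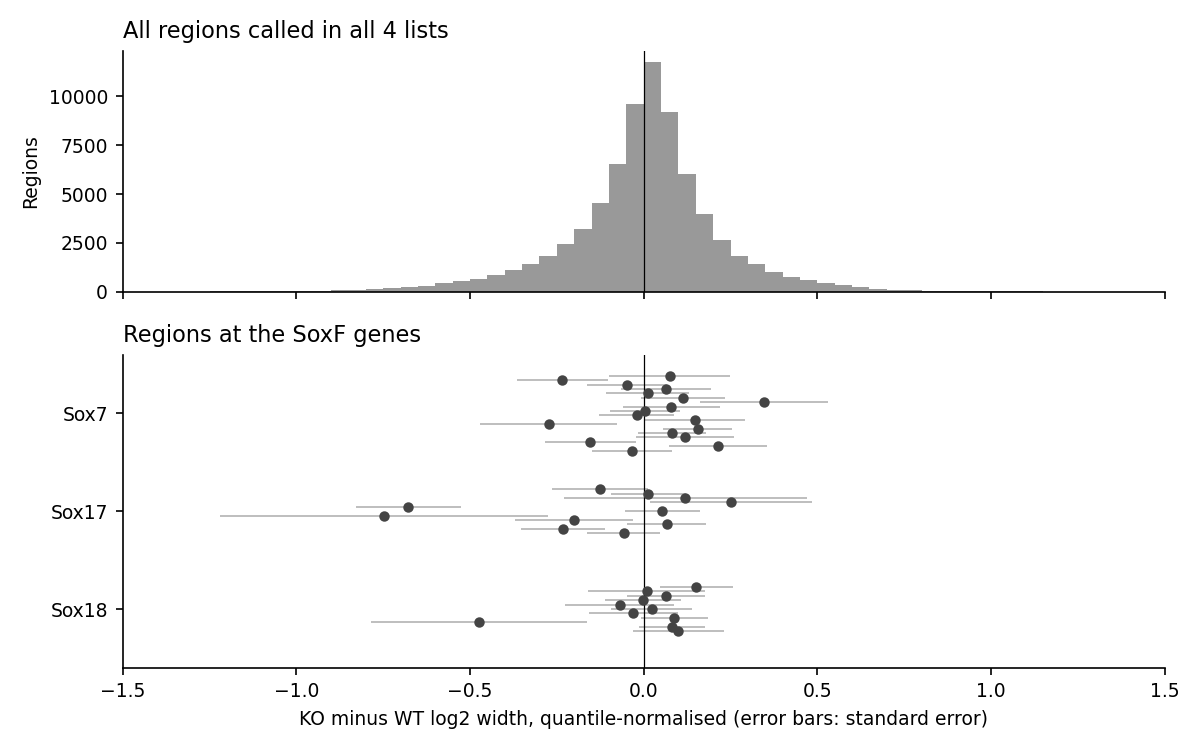
Top, numbers of regions called in all 4 lists by KO minus WT log2 width after quantile normalisation. Bottom, the same difference for the 40 SoxF regions by gene with its standard error from limma, where the 2 most negative points belong to Sox17 (-0.75 and -0.68).

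The centres of the peaks were also compared, over the 36 SoxF regions with 1 peak in every list. The median shift between centres was 19 bp between the KO libraries, 7.75 to 22.8 bp between a KO and a WT library, and 10.5 bp between the WT libraries. Over all 69863 such regions it was 28.5, 15.5 to 26.5 and 14.5 bp. The Jaccard index within the 3 intervals was 0.783 between the KO lists, 0.797 to 0.856 between KO and WT lists and 0.894 between the WT lists. As over the whole genome, KO replicate 2 was closer to either WT list than to KO replicate 1.

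Over the 3 intervals together, KO libraries listed 41 and 51 peaks and WT libraries 47 and 49, which overlap (46 ± 7.07 against 48 ± 1.41, SD, n = 2 each, two-sided exact permutation p = 1). Leaving out KO replicate 1 turned the difference to 3 more peaks in KO. Against 10.6% of gene intervals with fewer peaks in both KO libraries and 2.54% with more, 0 of the 3 genes had either. At Sox7 there were 19 and 24 in KO and 22 and 24 in WT. At Sox17 there were 11 and 15 in KO and 14 and 14 in WT, and at Sox18 11 and 12 in KO and 11 and 11 in WT.

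Base pairs covered by peaks were lower in both KO libraries. The 3 intervals held 22761 and 22931 bp in KO and 24992 and 24984 bp in WT, and the groups did not overlap. The means were 22846 ± 120 and 24988 ± 5.66 bp (SD, n = 2 each), a ratio of 0.914, with a two-sided exact permutation p of 0.33, the smallest that 2 against 2 allows. The difference of the means, -2142 bp, was -2227 to -2057 bp when each library was left out in turn. The whole lists had a ratio of 0.929, and with each list scaled to the same total the difference was -393 bp. At Sox7 peaks covered 9571 and 10256 bp in KO and 10803 and 10840 bp in WT. At Sox17 they covered 7098 and 6527 bp in KO and 7812 and 8011 bp in WT, a ratio of 0.861, which stood at the 18.1 percentile of 18870 genes with a WT peak. The Sox17 difference, -1099 bp, was -1384.5 bp without KO replicate 1 and -813.5 bp without KO replicate 2. The KO replicate 2 value includes the split region at the end of Sox17. Its peaks there summed to 880 bp, against 1430 to 1456 bp in the other lists. At Sox18 peaks covered 6092 and 6148 bp in KO and 6377 and 6133 bp in WT, which overlap. KO values lay below WT values for 2 of the 3 genes, against 36.8% of protein-coding gene intervals and 42.7% of those with a WT peak. Over the 8 comparisons of peaks and base pairs, the smallest adjusted p was 0.889.

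Scaling each list to the same total base pairs set the 3 genes apart from each other. At Sox17 the scaled KO values, 7458 and 6693 bp, stayed below the WT values, 7490 and 7777 bp, though KO replicate 1 was close to WT replicate 1. Such an order held in 13.4% of protein-coding gene intervals. The lower KO replicate 2 value again includes the split region at the end of Sox17, whose share in the difference was not tested. At Sox7 the scaled values overlapped, with 10057 and 10517 bp in KO and 10357 and 10524 bp in WT. At Sox18 the order turned, with 6401 and 6304 bp in KO and 6114 and 5954 bp in WT, as in 20.9% of intervals. The 2 plots of covered base pairs show this change of order at Sox18.

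**Figure D4:**
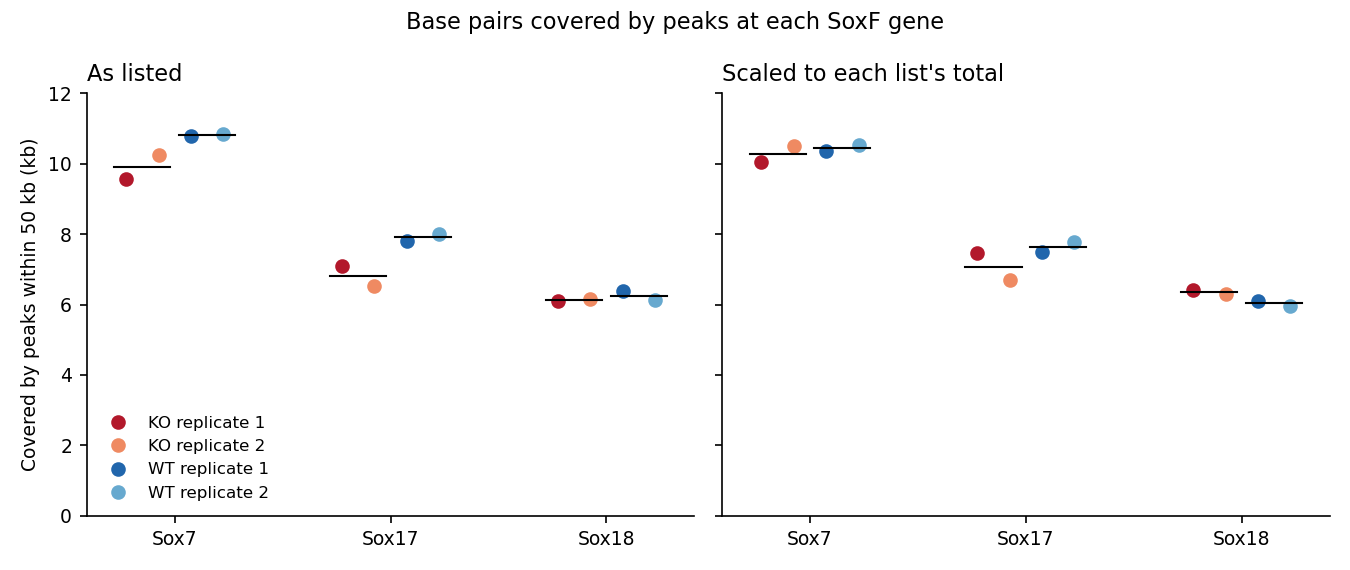
Base pairs covered by peaks within 50 kb of each SoxF gene, in kb, as listed (left) and scaled to the same list total (right), with KO libraries left of WT libraries and a bar at each genotype mean. Sox17 is lower in KO in both panels, while Sox18 is higher in KO after scaling.

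Partners of the SoxF factors and genes described as their targets in endothelium were examined over the same flanks, as a list of 20 genes. Their intervals held 400 regions, of which 282 (70.5%) were called in all 4 lists, 4 (1.00%) had the KO pattern and 14 (3.50%) the WT pattern, near the backgrounds of 66.7%, 1.12% and 3.04%. KO-pattern regions fell at 4 of the 20 genes and WT-pattern regions at 8, against 9.63% and 19.8% of all protein-coding genes. These 20 intervals held 5 to 46 regions, and the median over all genes was 9. Efnb2, which encodes the arterial ephrin B2, had 3 WT-pattern regions, the widest with peaks of 495 and 456 bp and 2829 bp away. Nr2f2, the venous factor, had a WT-pattern region (424 and 520 bp, 45712 bp away) and a KO-pattern region (278 and 260 bp, 4052 bp away). Flt1, a VEGF receptor gene, had a KO-pattern region inside it (332 and 358 bp). Cdh5, the VE-cadherin gene, had a WT-pattern region 22666 bp away (304 and 317 bp), and Nrp1, a VEGF co-receptor gene, had one inside it (372 and 288 bp). Cldn5, a tight junction gene, had 4, the widest 26456 bp away (307 and 284 bp).

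In covered base pairs, 13 of the 20 genes had both KO values below both WT values and 0 the reverse, against 36.8% and 3.75% of gene intervals. Among intervals with a WT peak, 42.7% had KO values below WT values. After scaling the counts were 3 and 3, against 13.4% and 20.9%. The 3 that stayed lower, named here after their values were seen, were Nr2f2, Efnb2 and Nrp1. As listed, Nr2f2 had 4694 and 6046 bp in KO and 7421 and 6927 bp in WT. Efnb2 had 7780 and 8016 bp in KO and 8894 and 8838 bp in WT. Nrp1 had 10704 and 10553 bp in KO and 12553 and 12130 bp in WT. The 3 that were higher in KO after scaling, named in the same way, were Hey2, a Notch-induced repressor, Robo4, an endothelial guidance receptor, and Flt1. Prox1, the lymphatic regulator that Sox18 switches on, also named after its values were seen, had 3649 and 4054 bp in KO and 4174 and 4490 bp in WT, and 0 patterned regions among 10.

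**Figure D5:**
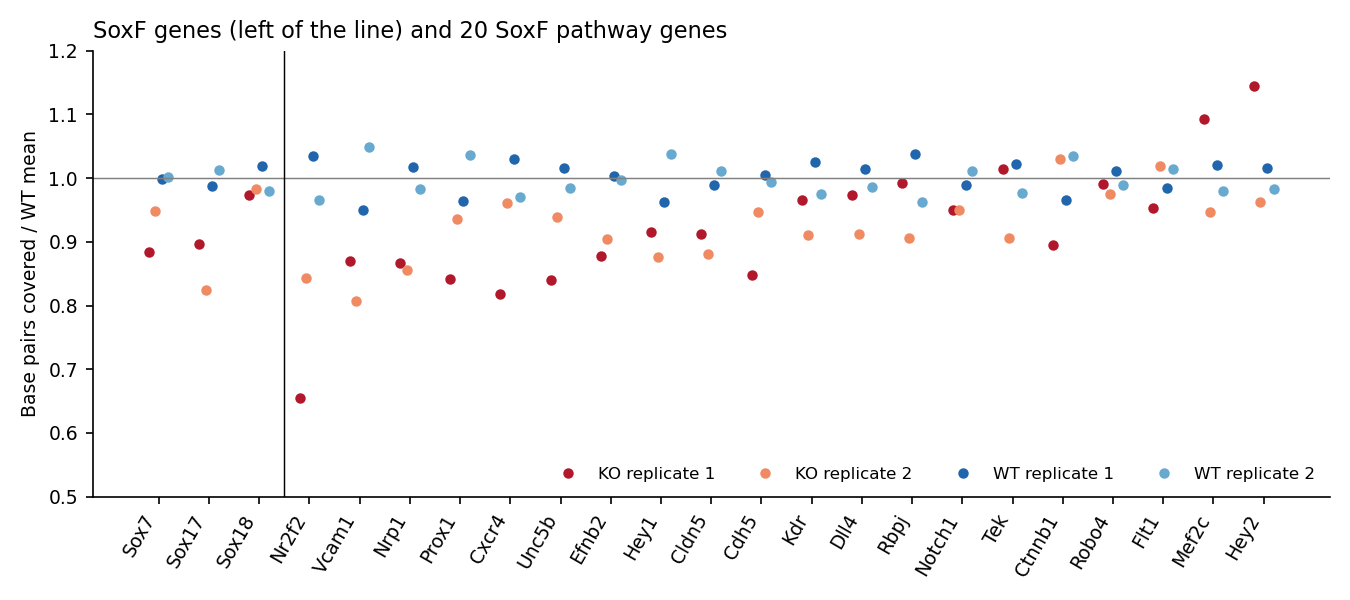
Base pairs covered by peaks within 50 kb in each library, divided by the WT mean of that gene, for the SoxF genes (left of the line) and the 20 SoxF pathway genes in order of their KO to WT ratio, with KO libraries left of WT libraries. Nr2f2 has the lowest ratio (0.749) and Hey2 the highest (1.05) of the 20.

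The other SOX genes, which share the HMG box but act mostly outside endothelium, were a second comparison. For 16 of them the intervals held 222 regions, of which 156 (70.3%) were called in all 4 lists, against 66.7% of all merged regions. The KO pattern was seen in 2 (0.90%) and the WT pattern in 4 (1.80%), against 1.12% and 3.04% of all merged regions. Sox13 had both KO-pattern regions and 1 WT-pattern region, and Sox1, Sox5 and Sox12 had 1 WT-pattern region each. By number of regions, and named after their values were seen, Sox5 had 43 and Sox13 33, while Sox3 and Sox14 had 1 each and Sox2, Sox9 and Sox21 had 5 each. The KO to WT ratio of covered base pairs had a median of 0.916 over the SoxF genes, 0.918 over the pathway genes, 0.904 over the other SOX genes and 0.944 over all genes with a WT peak.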

How the data were processed

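Peak lists were deposited for 4 ATAC-seq libraries of sorted lung endothelial cells, grouped by their titles. Per the submitters' processing notes, the tools included Bowtie2, cutadapt and Picard and the build was mm10. Not given in the sources used here are the peak caller, its threshold and whether reads were shifted for Tn5 cutting. Per the file headers, the deposited lists give chromosome, start, end, width and strand. Width in bp was therefore the only measurement, and no normalised value was listed.

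The members and gene lists were chosen with earlier results of these data known. Peaks were merged over chromosomes 1 to 19, X and Y, and a region belonged to a gene if it overlapped its RefSeq span (GRCm38.p6, without strand) or the 50 kb beside it. Library sums were compared by exact permutation. Widths of regions called in all 4 lists (the widest peak per list) were quantile-normalised on the log2 scale and fitted with limma over all such regions, with Benjamini-Hochberg adjustment. The merging and the limma fit were tested on simulated data. For limma the planted shifts were 1 and 2 log2 units, larger than any SoxF width difference with all 4 libraries. They do not show whether smaller shifts would be called. Described singly were patterned regions, those in or within 1000 bp of an end of the gene, the 3 widest and the 2 with the largest width difference per gene. Of the other lists, up to 6 genes with patterned regions could be named. Start windows came from RefSeq. Alternatives covered overlap, absence, list length, width, window, scaling, the replicate block and each library left out. The software was limma 3.58.1 (R 4.3.3) and Python 3.11.15 with scipy 1.17.1.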

Additional observations from a re-analysis of the deposited data

How the results depend on the processing

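The lists gave no depth, so widths near 201 bp and single missing calls carry the least weight. KO-pattern regions at the SoxF genes stayed at 0 with a larger overlap, a 500 bp gap, only the wider peaks or a window of 10 kb. They numbered 1 with lists of equal length and 1 with a window of 100 kb, and 0 to 1 without each library. WT-pattern regions numbered 0 with equal lengths and 0 with 10 kb, and 1 to 6 without each library, where 4.99% to 11.1% of all merged regions had it. The difference in peak number (KO minus WT, main value -2) was 0.5 with 10 kb, and -7 to 3 without each library. For Sox7 it turned to 0.5 with only the wider peaks and ranged from -4 to 1 without each library, for Sox17 that range was -3 to 1, and for Sox18 it turned to -0.5 with the wider peaks. The difference in base pairs (main value -2142) kept its sign in every alternative run, but was -393 bp with scaling to list totals, -908.5 bp with 10 kb and -3605 bp with 100 kb. For Sox18 alone it turned to 319 bp with scaling. The median log2 width difference (main value 0.018) turned to -0.048 without normalisation and ranged from -0.025 to 0.058 without each library. The cause of these changes was not tested.

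Widths of same-numbered libraries deviated from their genotype means with a correlation of -0.11. With 2 libraries per genotype, this cannot decide whether the replicate numbers pair the libraries. Within replicate number 2 the difference in peaks was 2 (1 at Sox17) and that in base pairs at Sox18 was 15, opposite in sign to the main values. With the replicate block, limma called 0 SoxF regions and 0 in all, as without it, with 1 SoxF region at an unadjusted p under 0.05. The crossed pairing, added after seeing the data, also called 0 and 0, with 1 of 40 SoxF regions and 4304 of all at an unadjusted p under 0.05. Leaving out each library called 0 each time, with 0 to 6 SoxF regions at an unadjusted p under 0.05. The 6 of 45 without KO replicate 1 and the 5 of 40 without KO replicate 2 stood beside 11.4% and 18.4% of all regions, and without WT replicate 1 or 2 the share of all regions was 2.65% or 2.97%.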

Other observations

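With the window widened to 100 kb, 1 KO-pattern region appeared, 75619 bp from Sox7 at chromosome 14, 63867846 to 63868087, with KO peaks of 201 and 218 bp. When all lists were shortened to 85091 peaks by dropping the narrowest, a region inside Rp1l1, 44747 bp from Sox7, took the KO pattern with KO peaks of 216 and 309 bp, because the WT peaks there were removed by that limit.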
